A study of Ovis aries with 16 samples.

Results

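The miR-26 family was followed as the 2 miRNA genes MIR26A and MIR26B, chosen by name as 2 of the 105 rows of the miRNA table and of 4920 rows in the 4 non-coding RNA tables of the series. Small RNA libraries were made from liver and muscle of 8 female sheep. The groups were liver of prenatal T ewes (48, 185, 233 and 255), liver of control ewes (98, 131, 132 and 201), muscle of the same prenatal T ewes and muscle of the same control ewes, with 4 libraries in each group. The labels give "prenatal T-treatment" or control for each ewe, and the series title names prenatal testosterone excess; the sources used here give no breed, age at sampling, dose or treatment days. Each tissue was homogenised whole, so fewer cells of a type and less miRNA per cell cannot be told apart.

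Background on the family helps to place these values. Mature miR-26a and miR-26b carry the same seed, the short stretch near the 5′ end that pairs with target mRNAs, and so share most predicted targets. In vertebrates they lie in introns of genes for small C-terminal domain phosphatases (CTDSPs), enzymes that act on RNA polymerase II and restrain neuronal genes outside the nervous system. In mice, miR-26a has been tied to insulin sensitivity and to glucose and lipid metabolism of the liver. In mouse muscle cells it lowers the polycomb methyltransferase EZH2 as myoblasts differentiate.

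Both sheep genes sat where the family is known from other mammals. In the RefSeq gene table of assembly ARS-UI_Ramb_v3.0, MIR26A lies wholly inside CTDSP2 and is followed by AVIL and TSFM, and MIR26B lies wholly inside CTDSP1, between SLC11A1 and VIL1. The sources used here name no build for the deposited values, so this annotation served for names and neighbours only, and strand, exons and introns were not read from it. Human miR-26a also has a copy inside CTDSPL. The only gene that the table lists over sheep CTDSPL is LOC105603371, so a copy there was not analysed here. Whether the MIR26A reads include any from such a copy cannot be told from these sources. The nearest row of the other RNA classes was LOC114114008, a lncRNA gene ahead of CTDSP2 and separated from it; none of the 4 tables holds another row that overlaps either phosphatase gene. The mature miR-26a and miR-26b sequences are near-identical, and the labels do not tell how the authors counted reads that match both. The split of reads between MIR26A and MIR26B is therefore uncertain.

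Libraries held 206304 to 755344 miRNA reads in liver and 113522 to 885316 in muscle, recovered from the deposited normalised values. Tissue labels were checked on marker miRNAs. MIR133, the muscle marker in the data, took 0.029% to 0.227% of miRNA reads in liver and 37.2% to 56.4% in muscle. The hepatocyte markers MIR148A and MIR194 together took 9.97% to 14.6% in liver and 0.187% to 0.351% in muscle. The other members of these marker lists, among them MIR122, MIR192, MIR1 and MIR206, are not among the 105 miRNAs analysed here. Library numbers in the labels fall into 2 separate runs, a lower one with 9 libraries (set 1) and a higher one with 7 (set 2). In liver, ewes 48 and 98 are in set 1 and the other 6 in set 2, and in muscle only ewe 255 is in set 2. The muscle library of ewe 255 was also the shallowest, and the highest MIR133 share among the livers was that of ewe 98.

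MIR26A was the most abundant of the 105 miRNAs in each of the 8 livers and came after MIR133 in each of the 8 muscles. Its share of miRNA reads was 14.2%, 15.3%, 16.2% and 16.4% in liver of prenatal T ewes 48, 185, 233 and 255, against 12.5%, 16.7%, 15.9% and 16.3% in liver of control ewes 98, 131, 132 and 201. In muscle the shares were 6.56%, 7.28%, 7.21% and 8.45% in the prenatal T ewes and 6.85%, 7.31%, 7.61% and 7.20% in the controls, in the same order of ewes. Every liver therefore lay above every muscle on this measure, and prenatal T and control ranges overlapped in both tissues. Most miRNAs were called higher in liver on these shares, 54 of 77 in prenatal T ewes and 58 of 75 in control ewes (limma). For liver over muscle MIR26A lay below the median of all miRNAs in both groups of ewes. Non-overlap was not counted over all miRNAs on this measure. The widest 95% Wilson interval of MIR26A for a single library ran from 8.28% to 8.61%, in muscle of ewe 255; these intervals cover counting error only.

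No neighbour below MIR26A in rank reached it, and above it in muscle stood MIR133 alone. Below it in liver came MIR148A, a hepatocyte miRNA, with 9.41% ± 2.32 of miRNA reads in prenatal T liver and 9.27% ± 1.26 in control liver (SD, n = 4 each). Below it in muscle came MIRLET7A with 5.80% ± 1.75 in prenatal T muscle and 5.17% ± 0.373 in control muscle. In none of the 8 livers did MIR148A exceed MIR26A, and in none of the 8 muscles did MIRLET7A.

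MIR26B was less abundant, at ranks 11 to 14 of the 105 in liver and 14 to 17 in muscle. It took 2.43%, 2.39%, 2.67% and 2.54% of miRNA reads in liver of prenatal T ewes 48, 185, 233 and 255, against 2.48%, 2.58%, 2.26% and 2.24% in liver of control ewes 98, 131, 132 and 201. In muscle it took 1.05%, 0.913%, 0.917% and 1.05% in the prenatal T ewes and 0.942%, 1.23%, 1.0004% and 0.971% in the controls. Again every liver lay above every muscle, and the treatment ranges overlapped. For liver over muscle on these shares MIR26B, too, lay below the median of all miRNAs. The neighbours of MIR26B in rank were close in liver. In prenatal T liver MIR194 was above it in 3 of 4 libraries and MIRLET7B in 1, and in control liver MIRLET7I was above it in 4 and MIR30A in 1. In muscle MIR181A-1 was above it in 3 of 4 prenatal T and 2 of 4 control libraries. Below it there came MIRLET7D in prenatal T muscle (0.670% ± 0.319, above it in 1 library) and MIR199A in control muscle (0.729% ± 0.121, above it in 0). Together the members made up 18.0% ± 1.07 of miRNA reads in prenatal T liver, 17.7% ± 1.88 in control liver, 8.36% ± 0.804 in prenatal T muscle and 8.28% ± 0.376 in control muscle (SD, n = 4 each).

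Whether exposure to testosterone before birth went with another level of the family was tested on the deposited values, which the authors had divided by a factor for each library. In liver MIR26A had 52825, 64748, 54919 and 58178 normalised reads in prenatal T ewes 48, 185, 233 and 255, against 44999, 66413, 62209 and 65029 in control ewes 98, 131, 132 and 201. Control liver of ewe 98 was the lowest of the 8 and the other 3 controls were among the highest 4, so the groups overlapped. The log2 fold change of prenatal T over control was -0.04 (SE 0.15, 95% interval -0.36 to 0.28), which corresponds to a fold between 0.782 and 1.22. The limma test gave an adjusted p = 0.959, and of the 81 miRNAs tested in liver 0% were called, with none at an unadjusted p under 0.05. In 1.23% of the 81 every prenatal T liver lay above every control liver, and in 0% below; MIR26A was in neither share.

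MIR26B in liver stood at 9046, 10130, 9071 and 9040 normalised reads in prenatal T ewes 48, 185, 233 and 255, against 8891, 10261, 8857 and 8909 in control ewes 98, 131, 132 and 201. A single ewe of each group, 185 and 131, was above the other 3, which lay close together. The means were 9322 ± 539 in prenatal T and 9229 ± 688 in control liver (SD, n = 4 each). The log2 fold change was 0.02 (SE 0.15, 95% interval -0.31 to 0.34, limma adjusted p = 0.981).

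In muscle MIR26A had 28486, 29260, 32058 and 25217 normalised reads in prenatal T ewes 48, 185, 233 and 255, against 30058, 28422, 31292 and 30727 in control ewes 98, 131, 132 and 201. Ewe 255 was the lowest of the 8 and ewe 233 the highest, both of them prenatal T. The log2 fold change was -0.07 (SE 0.12, 95% interval -0.33 to 0.18), a fold between 0.797 and 1.14. Without muscle of ewe 255 it was -0.01. The limma adjusted p was 0.825, with 0% of the 64 miRNAs tested in muscle called and 5 of them (7.81%) at an unadjusted p under 0.05, neither member among the 5. On recovered reads edgeR's quasi-likelihood test and DESeq2 also called 0 miRNAs in each tissue. Groups that did not overlap made up 1.56% of the 64 with prenatal T above and 1.56% with prenatal T below.

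MIR26B in muscle had 4562, 3673, 4079 and 3146 normalised reads in prenatal T ewes 48, 185, 233 and 255, against 4131, 4800, 4115 and 4144 in control ewes 98, 131, 132 and 201. Of the prenatal T ewes, 3 lay below every control and ewe 48 lay above 3 of the 4 controls. The means were 3865 ± 602 in prenatal T and 4297 ± 335 in control muscle (SD, n = 4 each), with a log2 fold change of -0.16 (SE 0.14, 95% interval -0.47 to 0.14, limma adjusted p = 0.778). Without ewe 255 the log2 fold change was -0.07. Muscle of ewe 255 had the lowest deposited MIR26A and MIR26B values of the 8 muscles and the lowest MIR133 share. As a share of miRNA reads its MIR26A was instead the highest of the 8 (8.45%). Its MIR26B share (1.05%) was below only that of ewe 131 (1.23%). The part of depth or library set in this was not tested.

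**Figure D1:**
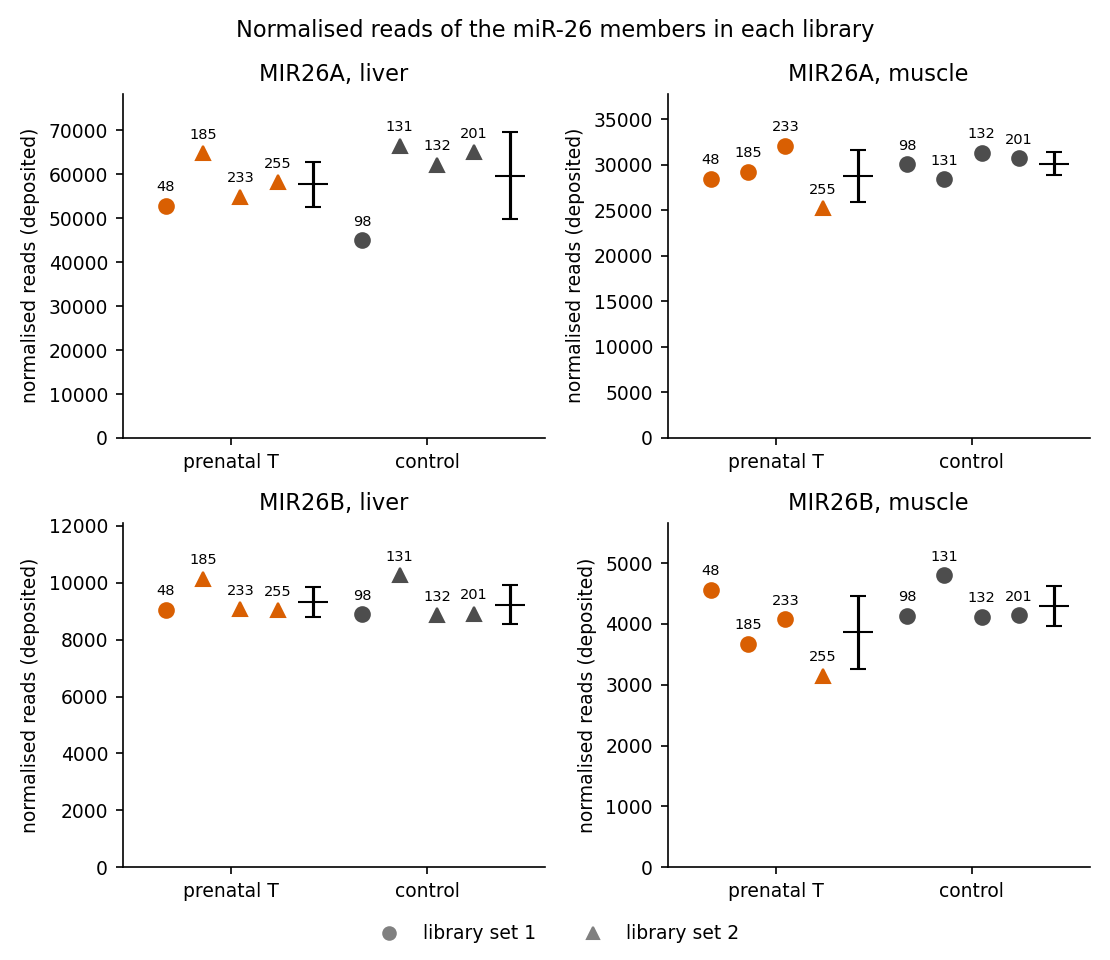
Normalised reads of MIR26A (top) and MIR26B (bottom) in liver (left) and muscle (right), as deposited by the authors. Each point is 1 library, labelled by ewe, with circles for library set 1 and triangles for set 2; bars give the mean ± SD of 4 libraries. Prenatal T and control points overlap in each panel, and MIR26A liver of control ewe 98 (44999) and muscle of prenatal T ewe 255 (25217) are the lowest of their tissue.

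Library set moved with MIR26A in liver. Its set 1 livers, ewes 48 and 98, held the lowest 2 of the 8 values, below the 54919 to 66413 normalised reads of the 6 livers in set 2. Within set 2 MIR26A averaged 59282 ± 5007 in prenatal T and 64550 ± 2142 in control liver (SD, n = 3 each; log2 fold change -0.13, limma adjusted p = 0.943). MIR26B did not follow the set, with 8891 and 9046 in set 1 and 8857 to 10261 in set 2. The part of library set in the MIR26A values was not tested.

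Shares of miRNA reads gave a second look at the same contrast without the authors' factors. Over the 4 comparisons of 2 members in 2 tissues, differences were at most 0.152 percentage points. Exact permutation of the 8 ewes of a tissue (two-sided, 70 assignments, lowest possible p 0.0286) gave raw p-values of 0.286 to 0.886 and an adjusted p = 0.886 for each.

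The prenatal T effect was also compared between tissues over all 16 libraries. For MIR26A the liver effect exceeded the muscle effect by 0.04 on the log2 scale (SE 0.18, 95% interval -0.34 to 0.41, limma adjusted p = 0.921), and for MIR26B by 0.18 (SE 0.21, 95% interval -0.26 to 0.62, adjusted p = 0.841). Of the 76 miRNAs tested for this difference 0% were called, and 2.63% had an unadjusted p under 0.05. With intervals this wide, the tissues are not shown to respond alike.

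**Figure D2:**
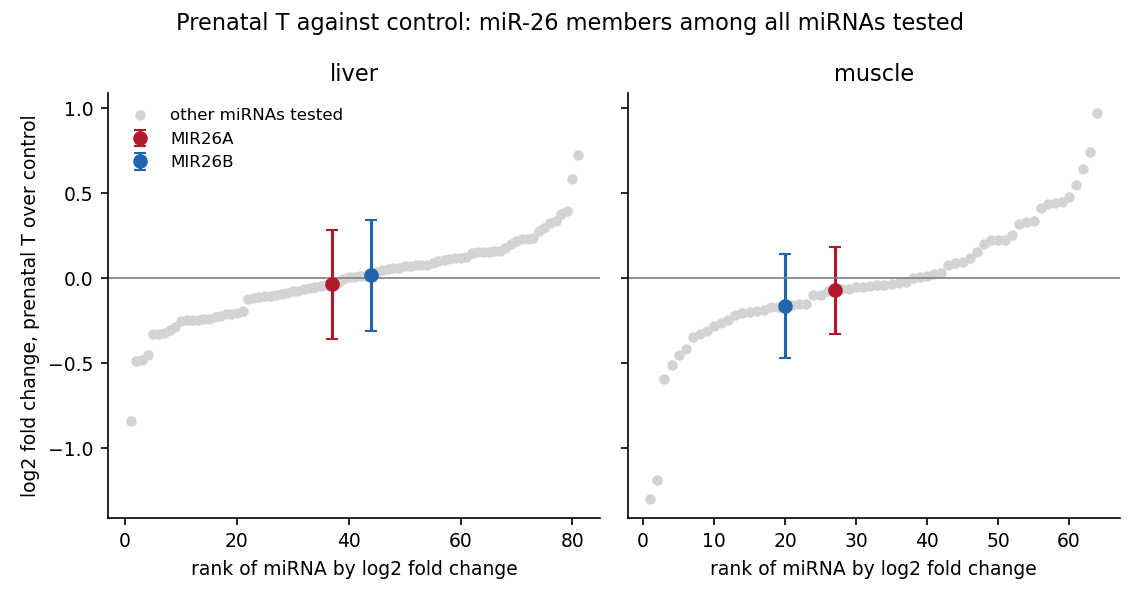
Log2 fold change of prenatal T over control (vertical axis) for each miRNA tested, ordered by size (horizontal axis), in liver (81 miRNAs) and muscle (64). Grey points are other miRNAs; MIR26A is red and MIR26B blue, with 95% intervals that span 0 in both tissues.

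Lists of related miRNAs give the setting of these effects; no member of any list passed in either tissue. Of the 3 EZH2-targeting miRNAs in the data (MIR26A, MIR26B and MIR199A), 2 had a higher mean in liver of prenatal T ewes and 1 a lower one. Their median log2 fold change there was 0.02, against 0.01 over all 81 miRNAs. In muscle all 3 had lower means, with a median of -0.16 against -0.05 over all 64. Since 2 of the 3 are the members themselves, the median in each tissue is the value of MIR26B. The list adds only MIR199A, at 0.17 in liver and -0.25 in muscle. The 9 miRNAs listed for insulin and glucose handling had medians of 0.07 in liver and -0.04 in muscle, and the 7 let-7 miRNAs -0.20 and 0.03. Those 9 include MIR29B-1 with MIR29B-2 and MIR181A-1 with MIR181A-2, pairs whose values match or nearly match. The 57 miRNAs inside the span of a protein-coding gene that passed the filter in liver had a median of 0.01, and the 44 in muscle 0.01. More of these genes lie under LOC105606646 than under any other gene. The liver-enriched pair MIR148A and MIR194 had a median of 0.02 in liver and -0.23 in muscle. MIR133, from the muscle-enriched list, stood at -0.84 (liver) and -0.17 (muscle) on the log2 scale.

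How MIR26A and MIR26B compared between liver and muscle turned on how the libraries were scaled. The deposited values were scaled within each tissue, so the recovered reads of all 16 libraries were scaled together by median-of-ratios factors over the 68 miRNAs with reads in every library. On that scale MIR26A had 35647, 41661, 37059 and 38563 scaled reads in liver of prenatal T ewes 48, 185, 233 and 255, against 42973, 47132, 47428 and 37361 in muscle of the same ewes. Liver was below muscle in 3 of these 4 ewes. The log2 fold change of liver over muscle was -0.19 (SE 0.12, 95% interval -0.44 to 0.06, limma adjusted p = 0.158).

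In control ewes 98, 131, 132 and 201 MIR26A had 26342, 43861, 41768 and 45238 scaled reads in liver, against 46764, 42415, 50260 and 47974 in muscle. Liver was lower in 3 of 4 ewes and by far the most in ewe 98. The log2 fold change was -0.28 (SE 0.18, 95% interval -0.68 to 0.12, limma adjusted p = 0.180). Without liver of ewe 98 it was -0.10. With TMM factors it passed as lower in liver (-0.35, limma adjusted p = 0.0335). Of the 74 and 76 miRNAs tested, 64.9% were called between tissues in prenatal T ewes and 72.4% in control ewes, so MIR26A was among the minority not called. By direction, 37.8% were higher and 27% lower in liver in prenatal T ewes, and 42.1% higher and 30.3% lower in control ewes. Liver and muscle did not overlap for 35.1% (liver above) and 27% (liver below) in prenatal T ewes, and for 40.8% and 30.3% in control ewes; both members overlapped in both groups of ewes.

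MIR26B had 6104, 6518, 6121 and 5992 scaled reads in liver of prenatal T ewes 48, 185, 233 and 255, against 6882, 5917, 6034 and 4661 in their muscle. Liver was higher in 3 of these 4 ewes. The log2 fold change was 0.09 (SE 0.16, 95% interval -0.25 to 0.42, limma adjusted p = 0.609), and without muscle of ewe 255 it was -0.02. In control ewes 98, 131, 132 and 201 the values were 5204, 6777, 5947 and 6197 in liver and 6427, 7163, 6609 and 6470 in muscle, lower in liver in all 4 ewes. There the log2 fold change was -0.15 (SE 0.14, 95% interval -0.45 to 0.15, limma adjusted p = 0.321), and DESeq2 on recovered reads called it lower (log2 fold change -0.28, adjusted p = 0.0220), as it did MIR26A (-0.39, adjusted p = 0.0466).

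Other scalings moved MIR26A across 0 in both groups of ewes and MIR26B in control ewes; in prenatal T ewes MIR26B was above 0 under all 6, with values from 0.02 to 2.14. As a share of miRNA reads MIR26A was higher in liver by 1.08 on the log2 scale in both groups of ewes (limma adjusted p = 5.08e-06 in prenatal T ewes and 2.02e-06 in control ewes). MIR26B was higher by 1.35 and 1.21 (adjusted p = 1.31e-06 and 3.94e-06). Most miRNAs were called higher in liver on these shares. In prenatal T ewes 54 of 77 were called higher and 7 lower, and in control ewes 58 of 75 and 4. Both members lay below the median of all miRNAs tested. In each group of ewes 47 miRNAs had a higher value than MIR26A and 43 a higher one than MIR26B. In muscle MIR133 took 37.2% to 56.4% of miRNA reads, which lowers the share of every other miRNA there. With MIR133 left out of the total, MIR26A took 14.2% to 16.4% in prenatal T liver and 13.4% to 16.5% in prenatal T muscle. In control ewes these ranges were 12.6% to 16.7% in liver and 14.9% to 15.9% in muscle. On that measure its log2 fold change was 0.05 in prenatal T ewes and 0.003 in control ewes (limma adjusted p = 0.651 and 0.976), and that of MIR26B 0.33 and 0.14 (0.0558 and 0.330).

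The median log2 fold change of liver over muscle over all miRNAs tested itself went from 0.13 to 2.29 between scalings in prenatal T ewes and from 0.20 to 2.33 in control ewes. A scaling gives each library 1 factor and so moves all miRNAs nearly together, and agreement between scalings on the order of miRNAs follows from that. On jointly scaled reads MIR26A and MIR26B lay below the median of all miRNAs in both groups of ewes. In prenatal T ewes 44 of 74 miRNAs had a higher liver-over-muscle value than MIR26A and 40 had one above MIR26B, and in control ewes 47 and 44 of 76 did.

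**Figure D3:**
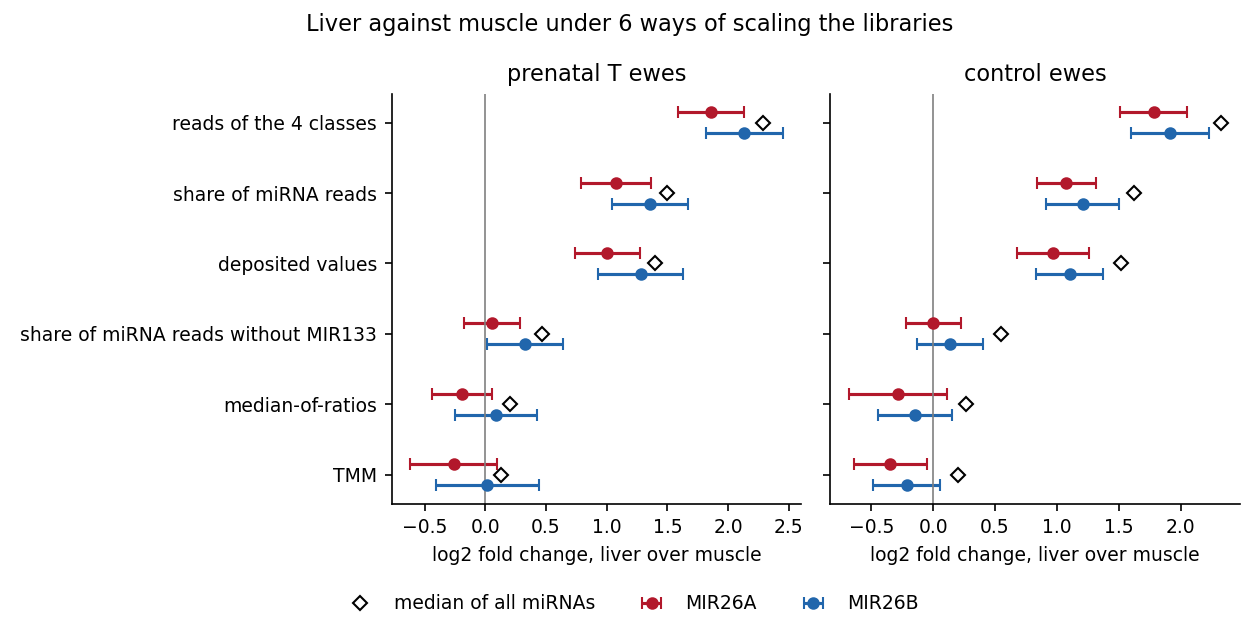
Log2 fold change of liver over muscle (horizontal axis) for MIR26A (red) and MIR26B (blue) with 95% intervals, and the median of all miRNAs tested (open diamonds), under 6 scalings, in prenatal T ewes (left) and control ewes (right). Both members are positive when scaled to the reads of the 4 classes or of miRNAs or as deposited, and without MIR133 MIR26A is near 0 (0.053 and 0.003) and MIR26B at 0.33 and 0.14. Scalings shift the members and the open diamonds nearly together.

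Tissue and library set were nearly the same split, since 7 of 8 muscles are in set 1 and 6 of 8 livers in set 2. In 3 ewes liver and muscle came from the same set. On the jointly scaled reads the log2 difference of liver minus muscle for MIR26A was -0.27 in ewe 48, 0.05 in ewe 255 and -0.83 in control ewe 98, and for MIR26B -0.17, 0.36 and -0.30. With set as a term in control ewes, the liver side of the comparison is the single liver of ewe 98, so the values (-0.83 for MIR26A and -0.36 for MIR26B) are those of 1 library and no test is read from them. In prenatal T ewes with set as a term they were -0.15 and 0.19 (adjusted p = 0.310 and 0.276).

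Calls in other lists are set beside those over all miRNAs tested. Of these, 37.8% were called higher and 27% lower in liver in prenatal T ewes, and 42.1% and 30.3% in control ewes. Of the 7 let-7 miRNAs, 6 were called lower in liver in prenatal T ewes and 6 in control ewes, with median log2 fold changes of -0.90 and -0.71 against 0.20 and 0.27 over all miRNAs tested. Of the 3 EZH2-targeting miRNAs only MIR199A, a miRNA of mesenchymal cells, was called, and it was higher in liver in both (1.13 in prenatal T and 0.65 in control ewes). Of the 9 insulin and glucose miRNAs, 2 were called higher and 2 lower in prenatal T ewes, and 1 higher and 4 lower in control ewes. The lower calls were MIR181A-1 and MIR181A-2 in both, joined in control ewes by MIR29B-1 and MIR29B-2. Values within each pair match or nearly match (in control ewes -1.60 and -1.62, and -0.74 for each MIR29B row). The 2 rows of a pair are therefore not separate results. Of the miRNAs inside a protein-coding gene, 19 of 50 were called higher and 13 lower in prenatal T ewes, and 23 of 52 higher and 13 lower in control ewes. Those counts are near the shares over all miRNAs. MIR148A and MIR194 were called higher in liver and MIR133 lower in both groups of ewes. These calls, too, are on the jointly scaled reads.

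The ratio of MIR26A to MIR26B reads within a library needs no scaling factor. The annotated hairpins are 84 and 85 bases long, so a ratio per length is nearly the same. In liver MIR26A had 5.84, 6.39, 6.05 and 6.44 reads per MIR26B read in prenatal T ewes 48, 185, 233 and 255, against 5.06, 6.47, 7.02 and 7.30 in control ewes 98, 131, 132 and 201. All 4 prenatal T livers lay below 3 of the 4 controls and above control ewe 98. The difference in mean log2 ratio was -0.05 (two-sided exact permutation test, p = 0.714, adjusted p = 0.714 over 5 ratio comparisons). Without ewe 98, the control that lies below them, it was -0.16; the order just given fixes the groups as separate then, so no test is read from it. Within library set 2 the ratio was 6.29 ± 0.209 in prenatal T and 6.93 ± 0.421 in control liver (SD, n = 3 each), again without ewe 98.

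In muscle the ratio was 6.24, 7.97, 7.86 and 8.02 in prenatal T ewes 48, 185, 233 and 255, against 7.28, 5.92, 7.61 and 7.42 in control ewes 98, 131, 132 and 201. In prenatal T muscle 3 ewes lay above every control and ewe 48 lay below 3 of them. The difference in mean log2 ratio was 0.09 (exact permutation p = 0.457, adjusted p = 0.625).

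Between tissues of the same ewe, the ratio was lower in liver than in muscle in 7 of 8 ewes; ewe 131 was the exception. The mean within-ewe difference of liver minus muscle was -0.21 on the log2 scale, a fold of 0.868. The exact sign-flip permutation test over 8 ewes gave p = 0.0469 with a smallest p of 0.00781, and after adjustment over the 5 ratio comparisons p = 0.234, so it did not pass. Leaving out ewe 131 gave -0.25 and leaving out ewe 98 gave -0.16, and the unadjusted exact permutation p was 0.0625 to 0.0938 when any ewe other than 131 was left out. The mean difference was -0.28 in prenatal T ewes (lower in liver in 4 of 4; exact permutation p = 0.125, the smallest with 4 ewes) and -0.13 in control ewes (3 of 4; exact permutation p = 0.5). Without ewe 98 the control value was -0.003. In the 3 ewes with both libraries in 1 set it was -0.10 (ewe 48), -0.32 (ewe 255) and -0.52 (ewe 98).

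**Figure D4:**
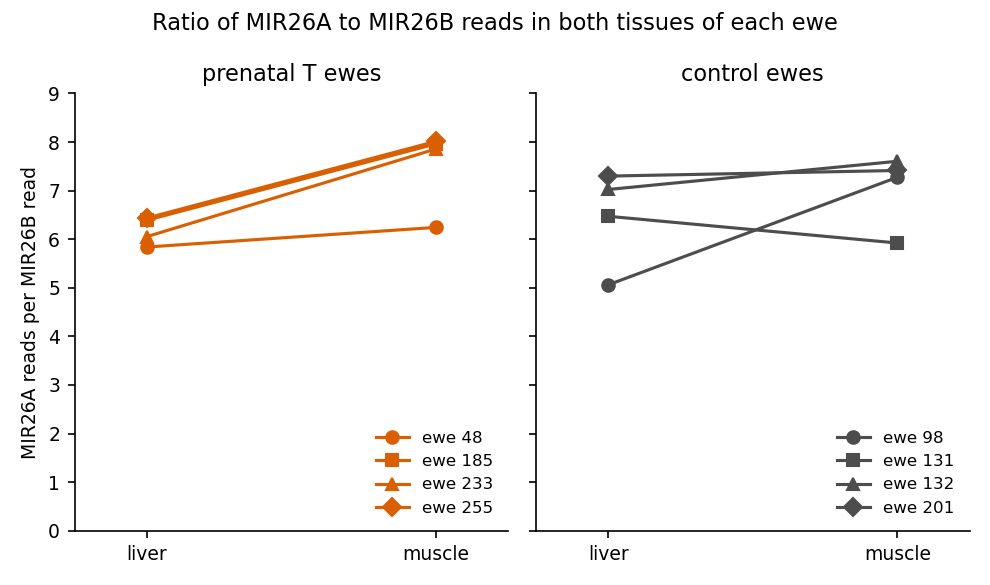
MIR26A reads per MIR26B read (vertical axis) in liver and muscle, with a line joining both tissues of each ewe, for prenatal T ewes (left) and control ewes (right). Values run from 5.06 to 8.02, and 7 of 8 lines are higher at muscle than at liver.

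Both members varied little between ewes of a group. The SD within groups of log2(normalised reads + 1), over all 16 libraries and 4 groups, was 0.143 for MIR26B, the smallest of the 64 miRNAs that averaged at least 5 normalised reads in both tissues, and 0.165 for MIR26A, the fifth smallest. The median was 0.324. MIRLET7G and MIRLET7I, with 0.1496 and 0.159, and MIR125B with 0.164 stood between them. As shares of miRNA reads the members were the first and second smallest, and on jointly scaled reads MIR26B ranked 3 and MIR26A 7 from the smallest. Without muscle of ewe 255 they kept ranks 1 and 5, and without liver of ewe 98 MIR26A was first (0.107) and MIR26B second (0.148). In liver alone the SD was 0.0932 for MIR26B (rank 1 from the smallest) and 0.207 for MIR26A (rank 7). In muscle alone it was 0.179 for MIR26B (rank 10) and 0.110 for MIR26A (rank 2). The median of the 64 was 0.307 in each tissue. Both members are abundant, and spread was not compared at equal abundance.

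**Figure D5:**
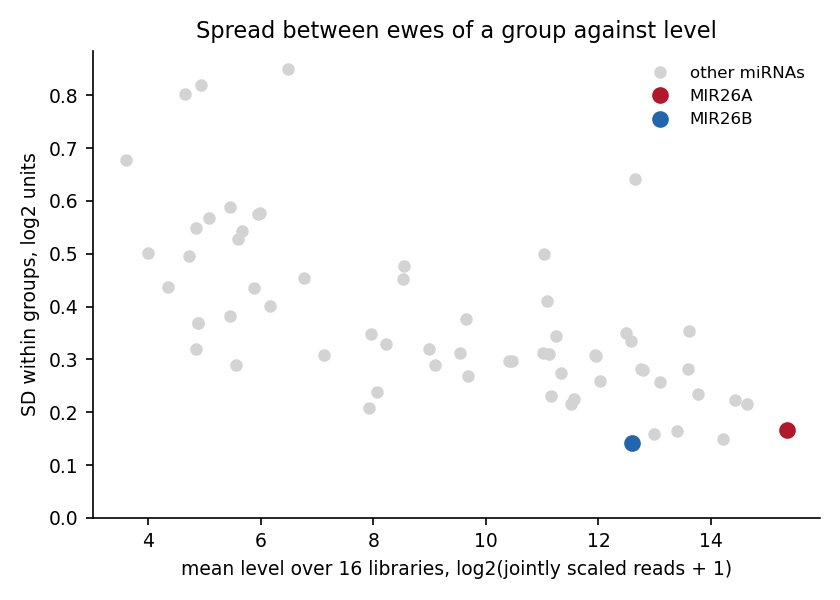
SD within groups of log2(normalised reads + 1) (vertical axis) against mean level over 16 libraries as log2(jointly scaled reads + 1) (horizontal axis) for 64 miRNAs. MIR26B (blue, 0.143) lies lowest of all points, and MIR26A (red, 0.165) lies farthest right.

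MIR26A and MIR26B did not track each other closely within groups. The Pearson correlation of their deviations from group means was 0.382 over 16 libraries (0.546 over 8 livers and 0.382 over 8 muscles), 0.0975 as shares of miRNA reads and 0.594 on jointly scaled reads. Without muscle of ewe 255 it was 0.196. Among the other 63 miRNAs, MIR26B ranked 15th in likeness to MIR26A. The miRNAs most like MIR26A were MIR22 (r = 0.806), MIRLET7F (0.790), MIR29B-1 and MIR29B-2 (0.758 each, with values that match), and MIR27A (0.732). Those most like MIR26B were MIR374B (0.820), MIR30C (0.802), MIR17 (0.760), MIR152 (0.742) and MIR29A (0.668). These 5 were all more like MIR26B in muscle (r = 0.745 to 0.899) than in liver (0.408 to 0.667). The part of muscle of ewe 255 in this was not tested. No miRNA was among the 5 for both. Least like MIR26A were MIR127 (-0.793), MIR432 (-0.699) and MIR433 (-0.631), and least like MIR26B were MIR433 (-0.673), MIR543 (-0.657) and MIR432 (-0.653). These are miRNAs of the DLK1-DIO3 cluster, whose miRNAs are expressed from the maternal chromosome. Likeness differed between tissues: MIR27A had r = 0.892 with MIR26A in liver and -0.179 in muscle, and MIR374B had r = 0.426 with MIR26B in liver and 0.899 in muscle. All these correlations rest on libraries scaled with 1 factor each, so they share that factor and the depth behind it, and they are given as descriptions over 16 libraries.

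Marker miRNAs of other cell types are given beside the members, with their part in these results not tested. The fibroblast and smooth muscle list, with 3 of 5 members in the data, summed to 9.83% to 13.98% of miRNA reads in prenatal T liver and 8.46% to 12.9% in control liver, and to 1.82% to 2.67% in prenatal T muscle and 2.45% to 3.73% in control muscle. The endothelial list had 2 of 3 members in the data, MIR10A and MIR10B, which lie over HOXB3 and HOXD4. With MIR126 missing, their sum is not read as a level of endothelial cells. The list summed to 0.326% to 0.361% in prenatal T and 0.377% to 0.498% in control muscle, ranges that do not overlap. In muscle the sum was mostly MIR10B, with mean normalised reads of 1135 in prenatal T and 1512 in control, against 197 and 265 for MIR10A. Of the 64 miRNAs tested in muscle, MIR10B alone (1.56%) had every prenatal T library below every control. In liver the list summed to 0.111% to 0.217% in prenatal T and 0.0969% to 0.149% in control. The immune miRNA MIR150, 1 of 4 listed, took 0.0878% to 0.155% and 0.106% to 0.184% in prenatal T and control liver, and 0.189% to 0.531% and 0.293% to 0.386% in prenatal T and control muscle. The erythroid list is held by MIR16B alone, with 0.300% to 0.607% and 0.465% to 0.606% in prenatal T and control liver, and 0.207% to 0.474% and 0.224% to 0.288% in prenatal T and control muscle. In prenatal T against control muscle, the 3 fibroblast and smooth muscle miRNAs and the 2 endothelial ones all had lower means, with median log2 fold changes of -0.51 and -0.44, and none was called. The immune, erythroid, muscle and hepatocyte markers in the data also had lower means there. Over all 64 miRNAs, 37 had lower means, with a median of -0.05. In liver 2 of the 3 and 2 of the 2 had higher means, with medians of 0.06 and 0.08. Defining markers such as MIR451, MIR126, MIR142 and MIR145 are not among the 105 miRNAs analysed here.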

How the data were processed

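Per the labels' protocols, total RNA was extracted with Trizol and small RNA libraries were made with an NEBNext kit. Per the submitters' processing notes, the tools included featureCounts 1.6.1, STAR 2.6.0c and cutadapt 3.2. Their order, the genome build and the handling of multi-mapping reads are nowhere stated in these sources. The authors deposited a normalised signal, reads divided by a factor for each library, for miRNAs, snoRNAs, snRNAs and lncRNAs. All 1432 miRNA values above 0 were whole multiples of 1 read (within 0.001 reads), so reads were recovered. The median ratio of a library's deposited values to the geometric means over all 16 libraries ran from 1.46 to 1.74 in liver and 0.632 to 0.689 in muscle, so tissues are not on a common scale.

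Prenatal T and control were compared with limma 3.58.1 (R 4.3.3, variance trend) on log2(value + 1) for miRNAs averaging at least 5, with Benjamini-Hochberg adjustment over all miRNAs tested and a threshold of 0.05; fold changes are on that scale. Tissues were compared likewise on jointly scaled reads. These fits, and that of the difference in prenatal T effect between tissues, held no term for the ewe, although both tissues came from the same animals. Fits with the ewe as a block were run as alternatives. As alternatives, edgeR 4.0.16 and DESeq2 1.42.0 were run on the recovered reads, and the fits were checked on simulated data. Other scalings, filters, pseudocounts, library set and each library left out were also tried. The gene table gives no strand, so miRNAs were placed inside coding genes by span alone. Ratios and shares were tested by exact permutation. Ewe numbers in the labels pair both tissues of an animal; deviations of paired libraries correlated between -0.278 and 0.355. Libraries of a group come from separate ewes. Wilson intervals cover counting error only. Named miRNAs were the members, the 5 most and 3 least like each by within-group correlation, neighbours in rank, and listed miRNAs. The members, lists and tests were chosen with earlier results of these data known.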

Additional observations from a re-analysis of the deposited data

Results flagged for a closer look

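Of 40 groups of 4 values examined, 5 held a library far from the other 3, against about 5% of groups by chance; the values share libraries. They were MIR26B in prenatal T liver of ewe 185 (10130.3 normalised reads), in control liver of ewe 131 (10261.2) and in control muscle of ewe 131 (4799.63), each above the rest of its group. Liver of control ewe 98 was low in MIR26A as a share of the reads of the 4 classes (10.0092%), and muscle of prenatal T ewe 48 was low in the ratio of MIR26A to MIR26B reads (6.24387).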

How the results depend on the processing

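Of 296 alternative values for 19 member results, 240 kept direction and side of the threshold and 38 changed sign, whether or not they passed. With the sign kept, 10 newly passed and 8 no longer passed. Ratio results were scored here on the unadjusted exact permutation p, and the other results on adjusted p-values. The 8 all concern the ratio of liver minus muscle in 8 ewes (unadjusted exact permutation p = 0.0469), which did not pass after adjustment. Liver over muscle changed most. For MIR26A in prenatal T ewes it was 1.08 as a share of miRNA reads, 0.053 without MIR133, 1.86 scaled to the 4 classes and 1.005 as deposited; in control ewes 1.08, 0.0030, 1.78 and 0.97, and it newly passed as lower with TMM (-0.35), DESeq2 (-0.39) and set as a term (-0.83, which is the liver of ewe 98 alone). For MIR26B the same 4 scalings gave 1.35, 0.33, 2.14 and 1.28 in prenatal T ewes, and 1.21, 0.14, 1.91 and 1.10 in control ewes, where set as a term gave -0.36 (ewe 98 alone) and DESeq2 -0.28. The median of all miRNAs moves with these scalings. Other causes were not tested. The replicate block by ewe changed no call (MIR26A adjusted p = 0.103 in prenatal T and 0.184 in control ewes). For prenatal T over control, MIR26A changed sign in liver as a share of miRNA reads (0.021) or of the 4 classes (0.046), and in muscle as a share (0.021). Its difference in percent of miRNA reads became -0.374 (medians) or -0.358 (set 2) in liver, and -0.0105 (medians), -0.266 (without MIR133), -0.0724 (4 classes) or -0.226 (set 1) in muscle. The tissue difference in log2 ratio was -0.22 with medians (exact permutation p = 0.0938).

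Leaving out 1 library gave log2 fold changes of prenatal T over control from -0.17 to 0.021 for MIR26A and -0.025 to 0.067 for MIR26B in liver, from -0.13 to -0.010 for MIR26A and -0.25 to -0.069 for MIR26B in muscle, and a difference between tissues from -0.095 to 0.092 for MIR26A. For liver over muscle in prenatal T ewes the range was -0.26 to -0.15 for MIR26A, which passed without muscle of ewe 255 (limma adjusted p = 0.0489), and -0.019 to 0.17 for MIR26B. The log2 ratio ran from -0.16 to 0.011 for prenatal T minus control in liver and from -0.25 to -0.16 for liver minus muscle in 8 ewes. The percent of miRNA reads ran from -0.789 to 0.592 for MIR26A in liver, -0.226 to 0.401 for MIR26A in muscle and -0.0846 to 0.0127 for MIR26B in muscle. With 4 ewes a group, intervals of about 0.3 on the log2 scale on each side of the liver effects limit what could be seen.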
